A study of Homo sapiens with 10 samples.

Results

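The metzincin proteases of the ADAM, ADAMTS and MMP families and their inhibitors, the TIMPs, were described in NB4, an established human line of acute promyelocytic leukemia. Members were taken by symbol among the genes listed as protein-coding, namely ADAM, ADAMTS, MMP or TIMP followed by a digit, together with ADAMDEC1, and MMP8 and MMP9 were left out. This gave 66 members of 60603 genes in the tables, of which 19975 are protein-coding: 21 ADAM genes, 19 ADAMTS genes, 22 MMP genes and 4 TIMP genes.

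ADAM proteins sit in the cell membrane and many of them cut the outer part off other surface proteins, a step called shedding. ADAMTS proteins are secreted and trim collagens, proteoglycans and other parts of the extracellular matrix. MMPs, secreted or fixed to the membrane, degrade matrix and activate one another, and TIMPs block MMPs and, to different degrees, ADAM and ADAMTS proteases. In myeloid cells these enzymes are known for releasing cytokines and receptors from the surface and for helping cells cross tissue.

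The RNA data, from mRNA-seq, cover 2 experiments. In the knockdown experiment, NB4 cells were collected 48 h after lentiviral transduction. The pLKO.1 puro vector was either empty (EV) or coded for shA1 or shB2, hairpins against GSE1, a chromatin protein. In the inhibitor experiment, NB4 cells for which the labels name no vector were exposed for 24 h to DMSO or to 2 µM MC2580, which blocks the histone demethylase LSD1 (the sample titles spell it MC280). Each of these 5 groups has 2 libraries from the same cell line. Since the knockdown values were read as pooling controls with hairpins, the level of GSE1 was not used as a check of the labels.

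The level used throughout is the base mean, the authors' average over libraries of read counts divided by a size factor. In the inhibitor experiment it pools DMSO with MC2580 over 4 libraries. In the knockdown experiment it was read as pooling EV with both hairpins over 6 libraries. Its header there names only shB2, however, so whether the shA1 libraries enter it is not settled. Each gene has 1 value per experiment. A base mean has no replicate error here, and no difference between EV and a hairpin or between DMSO and MC2580 was tested. The depth of single libraries is unknown. Over the whole table, base means add up to 40543130 in the knockdown experiment and to 41201112 in the inhibitor experiment. Of 6 myeloid markers, MPO, the myeloperoxidase of azurophil granules, was at 506765 and 824818 in the knockdown and inhibitor experiments, PRTN3, CTSG, AZU1 and CD33 lay between 723 and 6435, and ELANE, which encodes neutrophil elastase, was at only 1.10 and 3.87. Of 13 markers of fibroblasts, endothelium, epithelium, T cells, B cells and erythroid cells, 7 reached a base mean of 10 in the knockdown experiment and 6 in the inhibitor experiment, the highest being CD3D at 866 and 869 and EPCAM at 432 and 403, and their part in the levels of the proteases was not tested.

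The share of members detected depended on the limit. A base mean of at least 10, taken here as detected, was reached by 27 of the 66 members in the knockdown experiment, or 40.9%, and by 28 in the inhibitor experiment, or 42.4%. Among all protein-coding genes the share was 63.1% and 63.0%. With a limit of 1 the members' share was 59.1% and 65.2%, and that of the protein-coding genes 74.8% and 75.6%. The ADAM family had 8 of 21 detected in each experiment, the MMP family 7 of 22, the TIMP family 3 of 4, and the ADAMTS family 9 of 19 in the knockdown and 10 of 19 in the inhibitor experiment. The only member on either side of the limit was ADAMTS4, an aggrecanase that cuts cartilage proteoglycan, at 5.34 in the knockdown experiment and 11.9 in the inhibitor experiment. Just above the limit were ADAMTS20 in the knockdown experiment, at 20.7, and ADAMTS4 in the inhibitor experiment, followed there by MMP19 at 15.5, TIMP3 at 17.0 and ADAMTS20 at 23.4. Just below it was MMP21, at 6.60 and 9.14. The median member had a base mean of 3.06 in the knockdown and 2.67 in the inhibitor experiment, and the median protein-coding gene, zeros included in both cases, had 162 and 148.

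**Figure D1:**
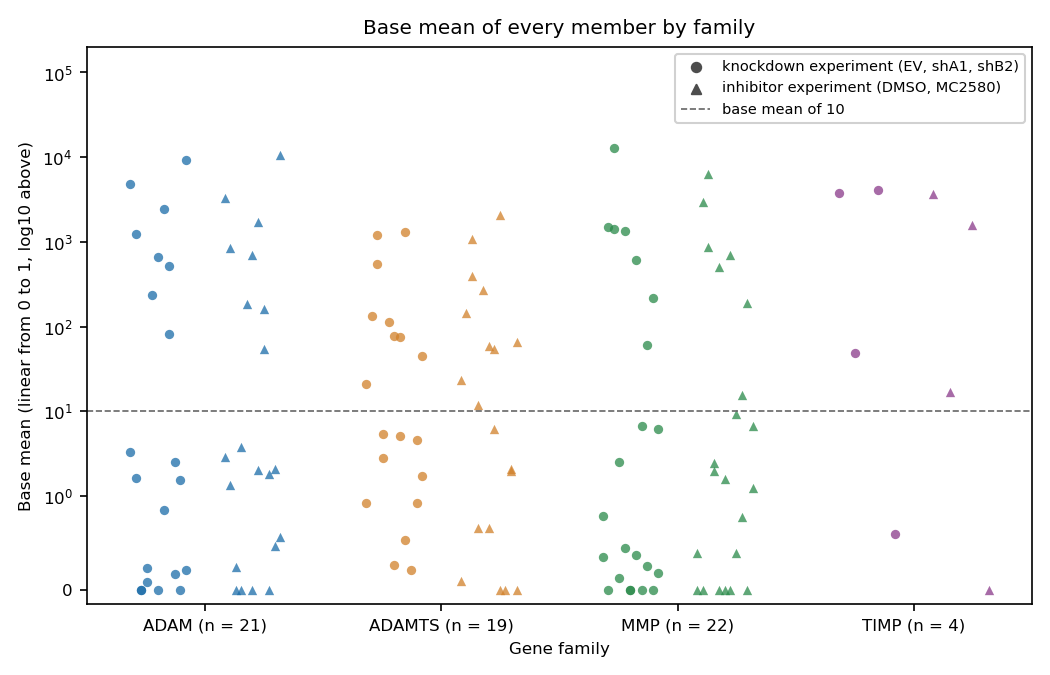
Base mean of each of the 66 members (vertical axis, linear from 0 to 1 and logarithmic above) by family, with circles for the knockdown and triangles for the inhibitor experiment; the horizontal spread within a column only separates points. The dashed line is a base mean of 10, which 27 members reached in the knockdown and 28 in the inhibitor experiment.

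The RNA of these families came from few genes. Levels of different genes were compared as base mean per kilobase of merged exon. On this scale MMP14, TIMP1 and ADAM15 together held 68.2% of the summed level of all members in the knockdown experiment and 67.1% in the inhibitor experiment. The 10 highest members held 91.7% and 92.2%, and 9 of these 10 were shared by the experiments. The members below a base mean of 10 held 0.108% and 0.141%. Of the 66 members, 14 were above the median protein-coding gene in the knockdown and 13 in the inhibitor experiment. Because the means carry no error, the order of neighbouring genes on this scale was not tested.

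**Figure D2:**
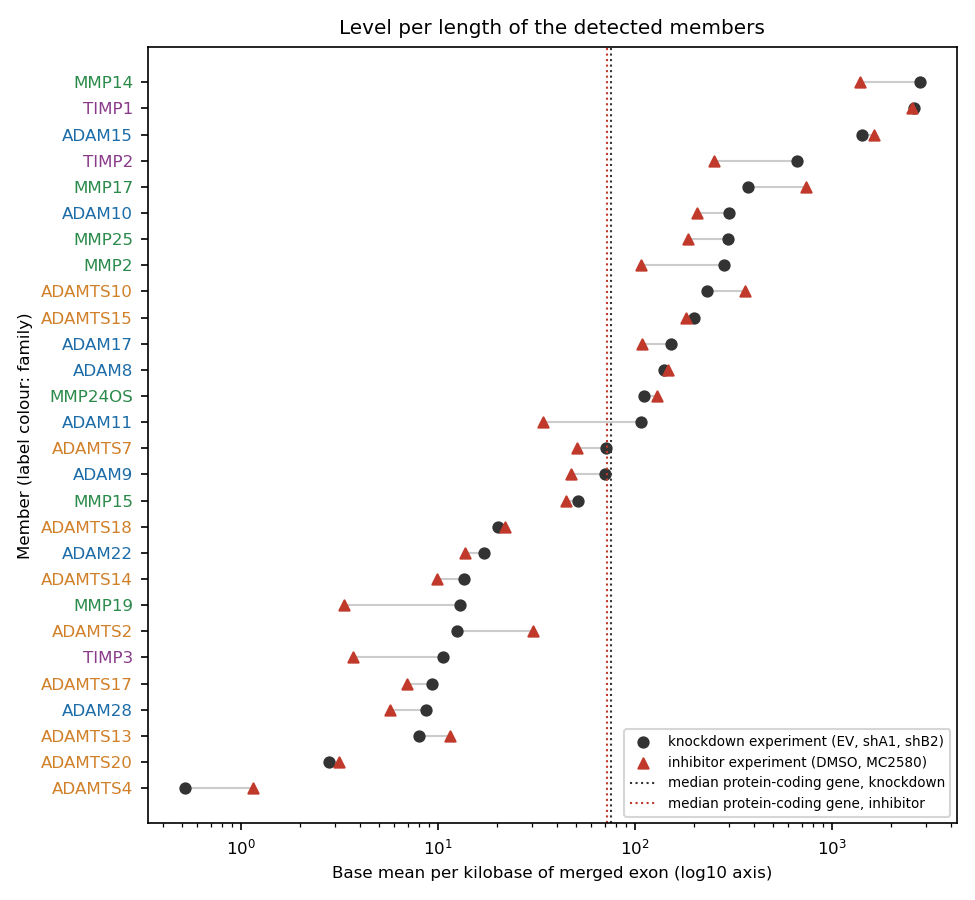
Base mean per kilobase of merged exon (horizontal, log10 axis) for the 28 members detected in either experiment, with circles for the knockdown and triangles for the inhibitor experiment; symbols are blue for ADAM, orange for ADAMTS, green for MMP and purple for TIMP. MMP14 at 2798 and TIMP1 at 2588 lie at the top in the knockdown experiment, and the dotted lines mark the median protein-coding gene, 75.2 in the knockdown and 71.9 in the inhibitor experiment.

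To show sequences at both ends of this range, the 250 bases before the RefSeq start of MMP14 and ADAM15, among the 3 highest members in each experiment, and of MMP7 and MMP10, both below a base mean of 1, were taken from RefSeq on GRCh38.p14. The RefSeq start lies 750 bases inside the GENCODE gene for ADAM15, 25 for MMP14, 3 for MMP7 and 0 for MMP10. The last 30 bases of the window of ADAM15 and the last 9 of that of MMP14, which GENCODE has as UTR of some transcripts, are counted but not printed. Capitals mark CpG dinucleotides in MMP14 (chr14:22836335-22836575, plus strand) and ADAM15 (chr1:155051066-155051285, plus strand). In MMP7 (chr11:102530748-102530997, minus strand) and MMP10 (chr11:102780629-102780878, minus strand) they mark the motifs TATAAA, the letters of a TATA box, and TGAGTCA, the letters bound by AP-1 factors, each searched on both strands. The 2 motifs did not overlap.
MMP14: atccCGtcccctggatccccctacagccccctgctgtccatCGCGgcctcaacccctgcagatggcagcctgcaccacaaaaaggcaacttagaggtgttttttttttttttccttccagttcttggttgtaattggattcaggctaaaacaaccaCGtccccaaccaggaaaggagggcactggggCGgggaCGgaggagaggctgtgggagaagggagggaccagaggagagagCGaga
ADAM15: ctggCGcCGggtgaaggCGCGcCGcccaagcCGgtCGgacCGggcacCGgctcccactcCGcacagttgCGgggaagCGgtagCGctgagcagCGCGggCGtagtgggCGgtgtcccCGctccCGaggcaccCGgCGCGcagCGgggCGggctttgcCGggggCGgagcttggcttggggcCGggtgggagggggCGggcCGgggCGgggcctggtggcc
MMP7: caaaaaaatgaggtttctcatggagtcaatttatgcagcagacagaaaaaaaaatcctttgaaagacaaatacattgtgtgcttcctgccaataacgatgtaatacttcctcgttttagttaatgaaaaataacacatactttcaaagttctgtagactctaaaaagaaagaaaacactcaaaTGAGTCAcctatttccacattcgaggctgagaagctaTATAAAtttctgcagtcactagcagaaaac
MMP10: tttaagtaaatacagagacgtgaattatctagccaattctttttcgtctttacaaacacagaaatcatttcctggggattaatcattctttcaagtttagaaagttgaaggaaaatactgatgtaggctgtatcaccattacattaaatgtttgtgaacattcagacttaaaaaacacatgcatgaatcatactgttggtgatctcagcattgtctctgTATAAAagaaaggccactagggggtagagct

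The whole window of ADAM15 holds 36 CpG dinucleotides, 30 of them printed, and that of MMP14 holds 7, against a median of 11 over all 35116 windows of the same length in the RefSeq table. The windows of MMP7 and MMP10 hold 3 and 2. TATAAA begins 30 bases before the start of MMP7 and 31 bases before that of MMP10, and it is found in 10.7% of all windows. TGAGTCA is found in the window of MMP7, 67 bases before the start, and in 4.20% of all windows. Neither motif is in the windows of MMP14 and ADAM15. A window was given for 39 of the 66 members, or 59.1%, so a comparison of base composition over the whole families is void, and these 4 windows are a description only.

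Among the ADAM genes grouped here as active proteases, those best known as sheddases of leukocytes were detected in both experiments. ADAM15 (ENSG00000143537.13, chromosome 1, 155050566 to 155062775 on GRCh38), a disintegrin protease linked to cell adhesion, had a base mean of 9312 in the knockdown and 10675 in the inhibitor experiment. Per kilobase it held 63.9% and 74.2% of the summed ADAM level and exceeded 93.0% and 93.7% of the protein-coding genes above 0. ADAM10, which sheds Notch receptors and many other surface proteins, was at 4796 and 3308. ADAM17, the protease that releases TNF, was at 2425 and 1731. Per kilobase, ADAM10 was at 300.1 and 207 and ADAM17 at 152 and 108, so both lay well under ADAM15 in each experiment.
ADAM9, another membrane sheddase, had base means of 1252 and 839. ADAM8, a leukocyte protease known to be induced in inflammation, was at 670.1 and 698. ADAM28, a lymphocyte-linked ADAM, was low at 81.4 and 53.7. Of the 10 members in this group, 6 were thus detected in both experiments. The remaining 4, ADAM12, ADAM19, ADAM33 and ADAMDEC1, ran from 0 to 1.54 in the knockdown and from 0 to 3.81 in the inhibitor experiment.

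ADAM11, ADAM22 and ADAM23 lack protease activity and are known as adhesion or receptor proteins of the nervous system. ADAM11 had a base mean of 513 in the knockdown experiment and 163 in the inhibitor experiment. ADAM22, the receptor of the LGI proteins, was at 235 and 186, and ADAM23 was at 3.29 and 2.87. The 8 ADAM genes known mainly from testis or epididymis (ADAM2, ADAM7, ADAM18, ADAM20, ADAM21, ADAM29, ADAM30 and ADAM32) were all below 10, with highest base means of 2.50 and 2.04. ADAM2 and ADAM18 were listed at 0 in both tables.

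With MMP8 and MMP9 left out by the rule, the MMP members were led by enzymes anchored in the membrane. MMP14 (ENSG00000157227.13, chromosome 14, 22836560 to 22849041), also called MT1-MMP, a collagenase of the cell surface, had the highest base mean of any member in the knockdown experiment, 12937, against 6383 in the inhibitor experiment. It held 71.2% and 53.2% of the summed level per kilobase of the MMP members, MMP24OS included. MMP17 and MMP25 are tied to the membrane by a GPI anchor, and MMP25 is known from neutrophils. MMP17 was at 1489.6 in the knockdown and 2960 in the inhibitor experiment, whereas MMP25 was at 1409 and 876. MMP15, another transmembrane enzyme, was at 218 and 188. Of the 6 membrane-type enzymes 4 were detected, and MMP16 and MMP24 stayed at or below 1.60 and 6.72.

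Of the 15 other MMP genes, 2 were detected. MMP2, the gelatinase A that degrades type IV collagen, had base means of 1328 in the knockdown and 502 in the inhibitor experiment. MMP19, a protease of basement membrane proteins, was at 60.1 and 15.5. MMP26, MMP27 and MMP28 were listed at 0 in both tables. Collagenases MMP1 and MMP13, stromelysins MMP3 and MMP10 and the matrilysin MMP7 lie in 1 stretch of chromosome 11, from 102520508 to 102955732 on GRCh38. Macrophage elastase MMP12, the enamel protease MMP20 and MMP27 lie in the same stretch. Only members were counted, and any gene of this stretch that the rule left out is not described here. All 8 of these members were near 0, with highest base means of 0.787 in the knockdown and 1.23 in the inhibitor experiment. Their sums were 2.39 and 2.79. They share their neighbourhood and are not independent of one another.

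A gene that the symbol rule takes but that is no protease is MMP24OS, which is transcribed from the strand opposite MMP24. Its base mean was 611 in the knockdown and 708 in the inhibitor experiment, while MMP24 itself, a neuronal membrane-type enzyme, was at 6.16 and 6.72. The 2 genes share 806 exonic bases, 18.4% of the exon length of MMP24. Without MMP24OS, 6 of 21 MMP genes were detected in each experiment.

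Per kilobase, every ADAMTS gene was below MMP14 and ADAM15 in both experiments. ADAMTS10, which binds fibrillin microfibrils, had a base mean of 1319.8 in the knockdown and 2049.8 in the inhibitor experiment. Per kilobase it was at 231 and 359, below ADAM10 in the knockdown experiment (300.1) but above ADAM10 in the inhibitor experiment (207). ADAMTS15 (ENSG00000166106.3, chromosome 11, 130448645 to 130476645), a versican-cutting proteoglycanase, was at 1194 and 1083. Per kilobase these genes together with ADAMTS7, which degrades cartilage oligomeric matrix protein, were the 3 highest of the family in each experiment. ADAMTS7 was at 550 and 394.
ADAMTS2 and ADAMTS14, which remove the N-propeptide of procollagens, were at 112 and 75.4 in the knockdown and at 271 and 55.0 in the inhibitor experiment. ADAMTS13, the protease that cleaves von Willebrand factor, was at 45.5 and 65.3. ADAMTS17 and ADAMTS18 were at 78.2 and 133 in the knockdown and at 58.5 and 144 in the inhibitor experiment. Of the 7 proteoglycanases, ADAMTS1, ADAMTS5, ADAMTS8 and ADAMTS9 were below 10 in both tables, with base means of at most 4.56.

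Among the inhibitors, TIMP1 (ENSG00000102265.12, chromosome X, 47582408 to 47586789), a secreted inhibitor of most MMPs, had base means of 3742 and 3658. It held 79.4% of the summed TIMP level per kilobase in the knockdown and 90.8% in the inhibitor experiment. TIMP2, which also takes part in the activation of MMP2, had a base mean of 4107 in the knockdown and 1567 in the inhibitor experiment. TIMP3, the matrix-bound inhibitor of ADAM17, was low at 48.4 and 17.0. TIMP4 was at 0.599 in the knockdown and listed at 0 in the inhibitor experiment.

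The 2 experiments were set side by side in ppm, where 1000000 ppm is the sum of all base means of a table. The tables were normalized separately, and the experiments differ in vector, hairpin or compound, and collection time, which cannot be told apart. Of the 23 members at 50 or more in both tables, 16 were higher in the knockdown experiment, or 69.6%, against 58.6% of the 10916 protein-coding genes at that level. The median member was 0.44 higher on the log2 scale, and the median protein-coding gene 0.09 higher. TIMP1 was 0.06 higher, but 0.04 lower (-0.04) once that median was subtracted, and was the only member whose direction differed between scalings.
A difference of over 2-fold upwards was seen for 4 of the 23 members, against 3.54% of the protein-coding genes. ADAM11 was at 12.7 ppm in the knockdown and 3.96 in the inhibitor experiment, a ratio of 3.20. MMP2 was at 32.8 and 12.2, a ratio of 2.69. TIMP2 was at 101 and 38.0, a ratio of 2.66, and MMP14 was at 319 and 155, a ratio of 2.06. MMP14, TIMP2 and MMP2 are known to act together, since TIMP2 held by MMP14 at the cell surface receives the MMP2 proenzyme for activation. They were singled out after their values were seen.
A difference of over 2-fold downwards was seen for 1 member, ADAMTS2, against 0.660% of the protein-coding genes. ADAMTS2 was at 2.75 ppm in the knockdown and 6.57 in the inhibitor experiment, 2.39 times as high in the latter. MMP17 lay just inside the limit, at 36.7 and 71.8 ppm, a ratio of 1.96 in the same direction. No detected ADAM gene of the group taken as active proteases was past 2-fold, whereas ADAM11, which lacks protease activity, was. The ratio of the knockdown to the inhibitor experiment was 1.54 for ADAM28, 1.52 for ADAM9, 1.47 for ADAM10, 1.42 for ADAM17, 0.976 for ADAM8 and 0.886 for ADAM15. With the median ratio of the protein-coding genes subtracted, 3 members were past 2-fold upwards and 2 downwards, since MMP14 (0.95 on the log2 scale) left and MMP17 (-1.06) entered.
Among the less expressed members, MMP19 was at 1.48 and 0.375 ppm and TIMP3 at 1.19 and 0.412, both lower in the inhibitor experiment. The other 3 of the 5 detected members under a base mean of 50 in a table were higher there, ADAMTS13 at 1.12 and 1.59, ADAMTS20 at 0.512 and 0.567 and ADAMTS4 at 0.132 and 0.289 ppm. No fold was counted for these 5.

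**Figure D3:**
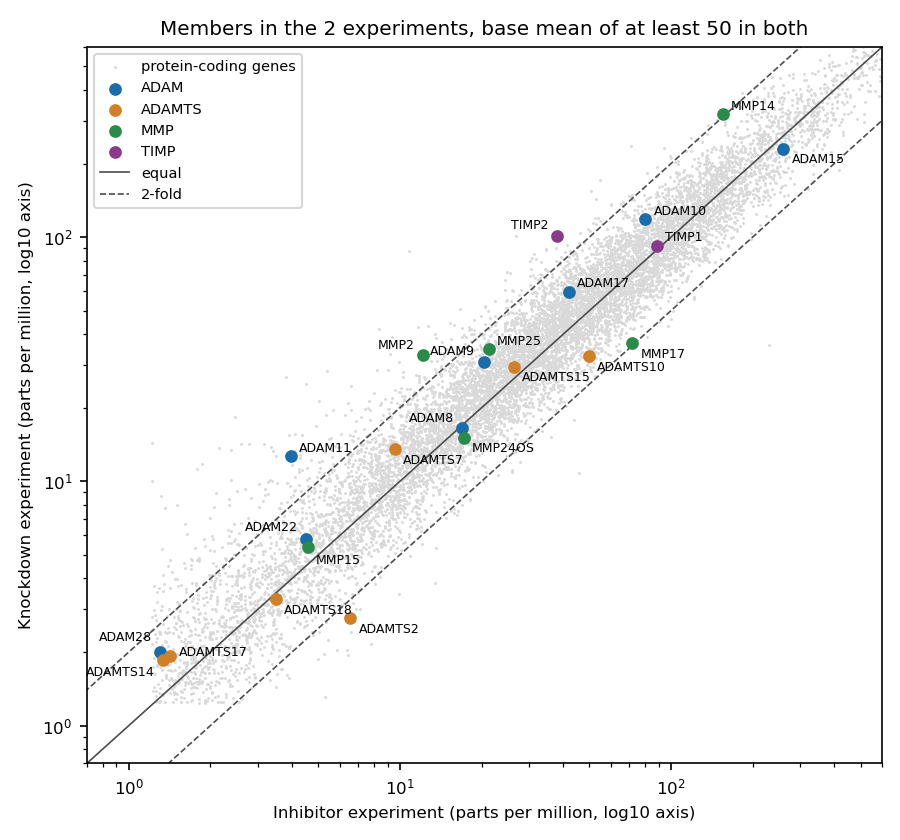
Level in ppm of the summed base means in the inhibitor experiment (horizontal) and the knockdown experiment (vertical), both log10 axes, for the 23 members whose base means reached 50 in both (coloured by family) and for protein-coding genes (grey), of which those beyond the axes are not drawn. ADAM11, MMP2, TIMP2 and MMP14 lie above the upper dashed line of 2-fold and ADAMTS2 below the lower one.

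Genes that act with these proteases were listed from their roles, 26 in all, and 21 of them were detected in each experiment. All 3 genes of the ADAM17 escort were present: FRMD8 at 2415 and 1873, RHBDF2, which codes for iRhom2, at 470.0 and 448, and RHBDF1 at 167 and 102. All 6 TspanC8 tetraspanins, which carry ADAM10 to the surface, were detected, led by TSPAN14 at 3757 and 4035 and TSPAN17 at 616 and 540.4. The other TspanC8 genes, TSPAN5, TSPAN10, TSPAN15 and TSPAN33, lay between 16.5 and 42.8 in the knockdown and between 18.2 and 28.3 in the inhibitor experiment. FURIN, a convertase that removes the prodomain of many ADAM and MMP proteins, was at 6338 and 5429. PCSK7 was at 2579 and 2946 and PCSK6 at 406 and 228, whereas PCSK5 was at 4.56 and 1.46. BSG, a glycoprotein that induces MMPs, had the highest base mean of the list, 28847 and 42595, RECK, a membrane inhibitor of MMPs, was at 262 and 130.4, and A2M, a plasma inhibitor of proteases, was at 1.66 and 3.07.
Among 10 proteins known to be shed, 7 were detected, the highest being CD44, the hyaluronan receptor, at 10299.6 and 7403. NOTCH1 was at 6267 and 4428 and NOTCH2 at 5542 and 2483. The TNF receptors TNFRSF1A and TNFRSF1B were at 5718 and 3285 in the knockdown and at 7064 and 2519 in the inhibitor experiment, IL6R, the interleukin-6 receptor, was at 4242 and 3401, and TNF itself was at 895 and 595. CX3CL1, a membrane-bound chemokine, and APP, the amyloid precursor protein, were below 10 in both tables. NOTCH2, at 137 and 60.3 ppm, and RECK, at 6.46 and 3.16, were the 2 of 17 genes of this list at 50 or more in both tables that were over 2-fold higher in the knockdown experiment, and 0 were over 2-fold lower. Among all protein-coding genes at that level 3.54% were over 2-fold higher and 0.660% over 2-fold lower. With the median ratio of the protein-coding genes subtracted, the ratio was 2.13 for NOTCH2 and 1.92 for RECK, so RECK was no longer past 2-fold.

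Reads of overlapping genes could not be told apart by strand, as the kit does not mark it. Of the 28 members detected in either experiment, 9 share exonic bases with a gene on the opposite strand. The largest such share was that of MMP25, 30.6% of whose exon length lies under MMP25-AS1, a gene with base means of 631 and 658. MMP19 shares 17.6% of its exon length with TMEM198B, which was at 496 and 812, far above MMP19 itself. MMP24OS shares 14.6% with MMP24, which was at 6.16 and 6.72. ADAM17 shares 10.3% with IAH1, which was at 9.40 and 8.34. For ADAM10, TIMP2, ADAM9, ADAMTS17 and ADAMTS18 the opposite genes cover at most 5.91% each.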

How the data were processed

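mRNA-seq libraries of NB4 cells had been made from mRNA with Illumina's TruSeq RNA v2 kit, which does not mark strand. The submitters' processing notes name bcl2fastq 2, FastQC 0.11.5, STAR 2.7, RSEM and DESeq2 on hg38; the annotation release is not given in the sources used here. The deposited tables, 1 per experiment, hold for each gene a base mean. The authors made this signal value with DESeq2 by dividing counts by size factors and averaging over libraries. For the knockdown experiment its header names only shB2, and it was read as the mean over all 6 libraries. The tables also hold columns of the authors' own comparisons (fold changes, their errors, statistics and p-values). Those comparison columns were not used. No values per library were analysed here, so the planned edgeR comparison of shA1 or shB2 with EV and of MC2580 with DMSO was not run, library depths are unknown, and all results are descriptions with no test. The labels number 2 replicates per group and do not say whether they came from separate cultures.

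Exon lengths and coordinates came from GENCODE release 44 (GRCh38), in which all 66 members were found by gene ID. Base means were divided by kilobases of merged exon to compare genes, and by the table's sum, in ppm, to set the experiments side by side. Detected means a base mean of at least 10, and experiments were set side by side for genes of at least 50 in both tables, with a fold of 2 counted. Members named are those of at least 10 in either table or at 0 in both, and others are named only for their place beside the limit, their group or their neighbours. The role groups were made after values were seen, and members and lists were chosen with earlier results of these data known. The value of 1 gene of the list of shed proteins is not reported here. Promoter windows came from the RefSeq table on GRCh38.p14. Computations used Python 3.11.15, numpy 2.4.6, pandas 2.3.3 and matplotlib 3.10.9, and the scripts were tested on simulated data.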

Additional observations from a re-analysis of the deposited data

How the results depend on the processing

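With a limit of 1 in place of 10, 43 members counted as detected in the inhibitor experiment in place of 28, and 39 in place of 27 in the knockdown experiment, so that most of the 66 members counted rather than a minority. A limit of 50 gave 24 in each. Ranking by the longest transcript kept 8 of the 10 leading members in each experiment, and ranking without length kept 9. The number above the median protein-coding gene ran from 14 to 17 in the knockdown and from 13 to 17 in the inhibitor experiment over the alternatives. Of 23 members, 15 or 16 were higher in the knockdown experiment under each scaling. No paired analysis was possible because the tables give 1 pooled base mean per gene and no values per replicate. For the same reason the planned DESeq2 fit, size factors, fit without a filter, and leaving out of single replicates were not run. Pooled means limit every result here: they carry no error, and effects of GSE1 knockdown or MC2580 on these genes cannot be read from them.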

Other observations

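Several members below the limit of 10 lie beside detected ones in the genome. ADAMTS8, at base means of 4.56 in the knockdown and 2.07 in the inhibitor experiment, neighbours ADAMTS15, at 1194 and 1083, on chromosome 11. ADAM32, at 0.855 and 2.04, neighbours ADAM9, at 1252 and 839, on chromosome 8. ADAMDEC1 and ADAM7, each at 0.471 or less in both tables, neighbour ADAM28, at 81.4 and 53.7, on the same chromosome. These are values only, and no test of the neighbourhoods was made.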
